A study of Mus musculus with 18 samples.

Results

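The cytochrome P450 enzymes of families 1, 2 and 3 were followed through 18 RNA-seq libraries of freshly isolated mouse hepatocytes. Members were chosen by gene name alone: every gene of the count table of young and old mice named Cyp1, Cyp2 or Cyp3 with a subfamily letter and number was taken, which gave 60 genes of 31053, in 16 subfamilies, and the same 60 Ensembl identifiers were read from the table of Smo-floxed mice. All 60 are annotated as protein coding. The study asked how aging changes the response of hepatocytes to partial hepatectomy (PH), the removal of 70% of the liver, and whether loss of Smoothened (Smo), the receptor component that relays Hedgehog signals into the cell, has a like effect. The groups were Old PH (24 months, 48 h after PH, n = 3), Old (24 months, quiescent, n = 3), Young PH (3 months, 48 h after PH, n = 3) and Young (3 months, quiescent, n = 3), all male wild-type C57BL/6J mice, and Smo (-) PH (n = 2), Smo (-) (n = 2), Smo (+) PH (n = 1) and Smo (+) (n = 1), all male Smo flox/flox mice (tm2Amc allele) on the same background, 3 months old by their labels. Smo (-) mice had received AAV8-TBG-Cre and Smo (+) mice AAV8-TBG-Luc, a luciferase control, 7 days before PH; the TBG promoter is active in hepatocytes, so that other liver cells keep Smo. The study gives its sample sizes in mice, and each library was taken as a separate mouse. The p-values thus measure the spread between mice, to which a Smo (+) group of 1 library adds nothing.

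These enzymes are heme proteins of the endoplasmic reticulum that insert an oxygen atom into fatty substances, taking their electrons from the reductase Por. Families 1 to 3 oxidise drugs, environmental chemicals, steroids, bile acids and fatty acids, and the liver is their chief site. Several are set by position in the lobule (Cyp2e1, Cyp1a2 and Cyp2c29 near the central vein, Cyp2f2 near the portal tract), by sex through the pattern of growth hormone, or by inducing substances through the receptors AHR, CAR and PXR.

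Most members lie in clusters of neighbouring paralogs in the GRCm38 annotation (the same assembly as mm10). The 15 Cyp2c genes lie on chr19:39007019-44029208, the 8 Cyp2d genes on chr15:82370527-82794294, the 9 Cyp3a genes on chr5:137892932-146113287 and the 8 Cyp2j genes on chr4:96027534-96664154. The 4 Cyp2a and 5 Cyp2b genes share a stretch of chromosome 7 with Cyp2f2, Cyp2g1, Cyp2s1 and Cyp2t4, and Cyp1a1 and Cyp1a2 are neighbours on chr9:57676937-57703824. Because paralogs are alike, 10 members share more than 10% of their 100-base stretches with other transcripts, so that their counts are uncertain. These are Cyp3a41a, Cyp3a41b, Cyp2c40, Cyp2c69, Cyp2c67, Cyp2c68, Cyp2d10, Cyp2a5, Cyp2d11 and Cyp2a4. The strand setting of the count is not stated, and exons of Cyp2u1, Cyp2t4, Cyp2f2, Cyp2a4, Cyp2c55 and Cyp2s1 overlap a gene on the other strand, whose reads cannot be told apart from theirs.

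Promoters were read from RefSeq (GRCm38.p6) as the 250 bases before to 50 after the start of transcription, and 52 of the 60 members had one. Cyp2e1 and Cyp3a11 are shown because they were the most abundant members and responded differently to PH, as given further on; capitals mark every match to the 6 motifs listed after the sequences.

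Cyp2e1 (ENSMUSG00000025479), chr7:140763569-140763868, plus strand: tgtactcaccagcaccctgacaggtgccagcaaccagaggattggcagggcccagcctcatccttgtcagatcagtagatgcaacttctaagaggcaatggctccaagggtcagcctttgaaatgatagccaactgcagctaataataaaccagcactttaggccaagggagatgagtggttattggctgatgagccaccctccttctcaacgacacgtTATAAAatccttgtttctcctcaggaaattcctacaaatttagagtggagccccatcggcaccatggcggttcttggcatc

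Cyp3a11 (ENSMUSG00000056035), chr5:145879805-145880104, minus strand: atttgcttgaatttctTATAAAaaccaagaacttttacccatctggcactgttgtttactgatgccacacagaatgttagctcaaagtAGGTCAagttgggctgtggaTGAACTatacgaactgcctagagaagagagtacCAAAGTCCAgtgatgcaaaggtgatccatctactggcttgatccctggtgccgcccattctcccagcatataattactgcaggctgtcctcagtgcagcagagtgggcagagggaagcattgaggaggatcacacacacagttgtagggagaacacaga

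Cyp3a25 and Cyp3a59 are shown because their promoters are nearly the same and Cyp3a25 alone of the pair was called after PH, and they differed in opposite directions between Smo (-) and Smo (+). Here capitals mark the 11 of 300 bases that differ (96.3% identical).

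Cyp3a25 (ENSMUSG00000029630), chr5:146009568-146009867, minus strand: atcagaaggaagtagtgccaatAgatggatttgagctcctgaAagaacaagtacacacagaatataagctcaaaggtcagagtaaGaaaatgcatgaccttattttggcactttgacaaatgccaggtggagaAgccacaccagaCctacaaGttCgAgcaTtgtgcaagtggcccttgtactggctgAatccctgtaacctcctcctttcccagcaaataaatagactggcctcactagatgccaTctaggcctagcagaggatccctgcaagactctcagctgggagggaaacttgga

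Cyp3a59 (ENSMUSG00000061292), chr5:146079008-146079307, plus strand: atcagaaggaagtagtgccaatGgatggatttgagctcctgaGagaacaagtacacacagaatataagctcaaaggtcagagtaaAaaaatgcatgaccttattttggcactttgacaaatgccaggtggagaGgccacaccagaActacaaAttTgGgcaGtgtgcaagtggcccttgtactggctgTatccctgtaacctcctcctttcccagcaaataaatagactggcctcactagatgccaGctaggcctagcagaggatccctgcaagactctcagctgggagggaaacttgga

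Cyp2a4 and Cyp2a5, whose levels also moved in opposite directions in Smo (-) mice after PH, differ at 5 of 299 bases when set 1 base apart (98.3% identical), again in capitals.

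Cyp2a4 (ENSMUSG00000074254), chr7:26306942-26307241, plus strand: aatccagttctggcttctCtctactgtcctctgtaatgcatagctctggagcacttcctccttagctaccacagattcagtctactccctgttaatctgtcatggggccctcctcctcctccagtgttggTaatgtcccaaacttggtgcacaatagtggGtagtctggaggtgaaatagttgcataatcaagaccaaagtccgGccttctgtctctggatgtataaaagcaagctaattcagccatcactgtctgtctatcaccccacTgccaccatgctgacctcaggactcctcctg

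Cyp2a5 (ENSMUSG00000005547), chr7:26835089-26835388, plus strand: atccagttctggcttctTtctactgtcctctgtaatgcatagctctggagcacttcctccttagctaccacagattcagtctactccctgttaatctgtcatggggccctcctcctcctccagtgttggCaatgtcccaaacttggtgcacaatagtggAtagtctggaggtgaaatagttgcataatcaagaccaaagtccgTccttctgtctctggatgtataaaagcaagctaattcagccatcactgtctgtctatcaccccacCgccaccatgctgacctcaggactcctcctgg

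Both strands were searched, without allowance for mismatches. TATAAA, the TATA box, was found in 27 of 52 members (51.9%), against 14.1% of 27025 promoters. CAAAGTCCA, a site of HNF4, was found in 10 of 52 members (19.2%), against 0.496% of 27025 promoters. All 10 are Cyp2c or Cyp3a genes. Paralogs were counted separately though some promoters are near copies, such as those of Cyp3a41a and Cyp3a41b (97.3% identical). AGGTCA, the half-site of many nuclear receptors, was found in 18 of 52 members (34.6%), against 16.2% of 27025 promoters. TTGCNNAA, a C/EBP site, was found in 14 of 52 members (26.9%), against 10.7% of 27025 promoters. AGTTCA, the half-site of PXR and CAR, was found in 7 of 52 members (13.5%), against 14.0% of 27025 promoters, and GCGTG, the core bound by AHR, in 9 of 52 members (17.3%), against 32.2% of 27025 promoters. Of the 13 members with a promoter that fell after PH at both ages, 9 hold TATAAA and 2 hold CAAAGTCCA; of the 17 tested members that fell at neither age, 11 and 2 do. These are matches of letters, not sites of binding.

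The depth, as pairs of reads assigned to genes, was 17089525 to 23073217 per old library, 31729517 to 36646939 per young library and 16835686 to 19151731 per Smo library. Libraries of the ages also differed in composition: pairs outside any gene made up 2.03% to 3.74% in old libraries and 25.2% to 33.9% in young ones, and long noncoding genes took 0.159% to 0.299% of gene counts in old libraries and 7.34% to 9.72% in young ones. The lone Smo (+) library stood apart, with 22.5% of its gene counts from the mitochondrial genome, against 3.32% to 6.85% in the other 5 of its table. Smo itself had 25 and 54 counts in Smo (-), against 78 in Smo (+), and 30 and 26 in Smo (-) PH, against 220 in Smo (+) PH. The hepatocyte markers Alb, Apoa1, Ttr, Serpina1c and Ahsg summed to 44926 to 173361 CPM in every library. CPM is a gene's count relative to its library's total, which TMM factors adjust for composition. The 7 macrophage markers summed to 21.5 to 407 CPM and 6 endothelial markers to 29.7 to 599.8 CPM.

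Of the 60 members, 43 passed the filter on low counts among young and old libraries and 41 among Smo libraries, and 3 (Cyp2b23, Cyp2j12 and Cyp2j7) had no count in any of the 18. The rest of the untested members (Cyp1b1, Cyp2b13, Cyp2b19, Cyp2c65, Cyp2c66, Cyp2j11, Cyp2j13, Cyp2j8, Cyp2s1, Cyp2w1, Cyp3a16, Cyp3a41a, Cyp3a41b and Cyp3a57) had at most 39 counts in a library of young or old mice. Among Smo libraries 9 members were at 0 in all 6, Cyp2b9 and Cyp2c69 among them. Levels were uneven, and the 5 highest members of a library held 59.8% to 68.9% of its member counts. Per kilobase of exon, Cyp2e1 was highest in Young (2915 CPM per kilobase on average) and Cyp3a11 next (1127). Differences are log2 fold changes from the quasi-likelihood test of edgeR, with the standard error (SE) after ±, and the call of a gene, upward or downward, required an adjusted p (Benjamini-Hochberg, over all genes tested in the table) under 0.05. Where a call ended under another tool, scaling or filter, or without 1 library, the adjusted p of that fit is given in brackets. In bulk RNA, fewer cells of a type and less RNA per cell cannot be told apart.

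**Figure D1:**
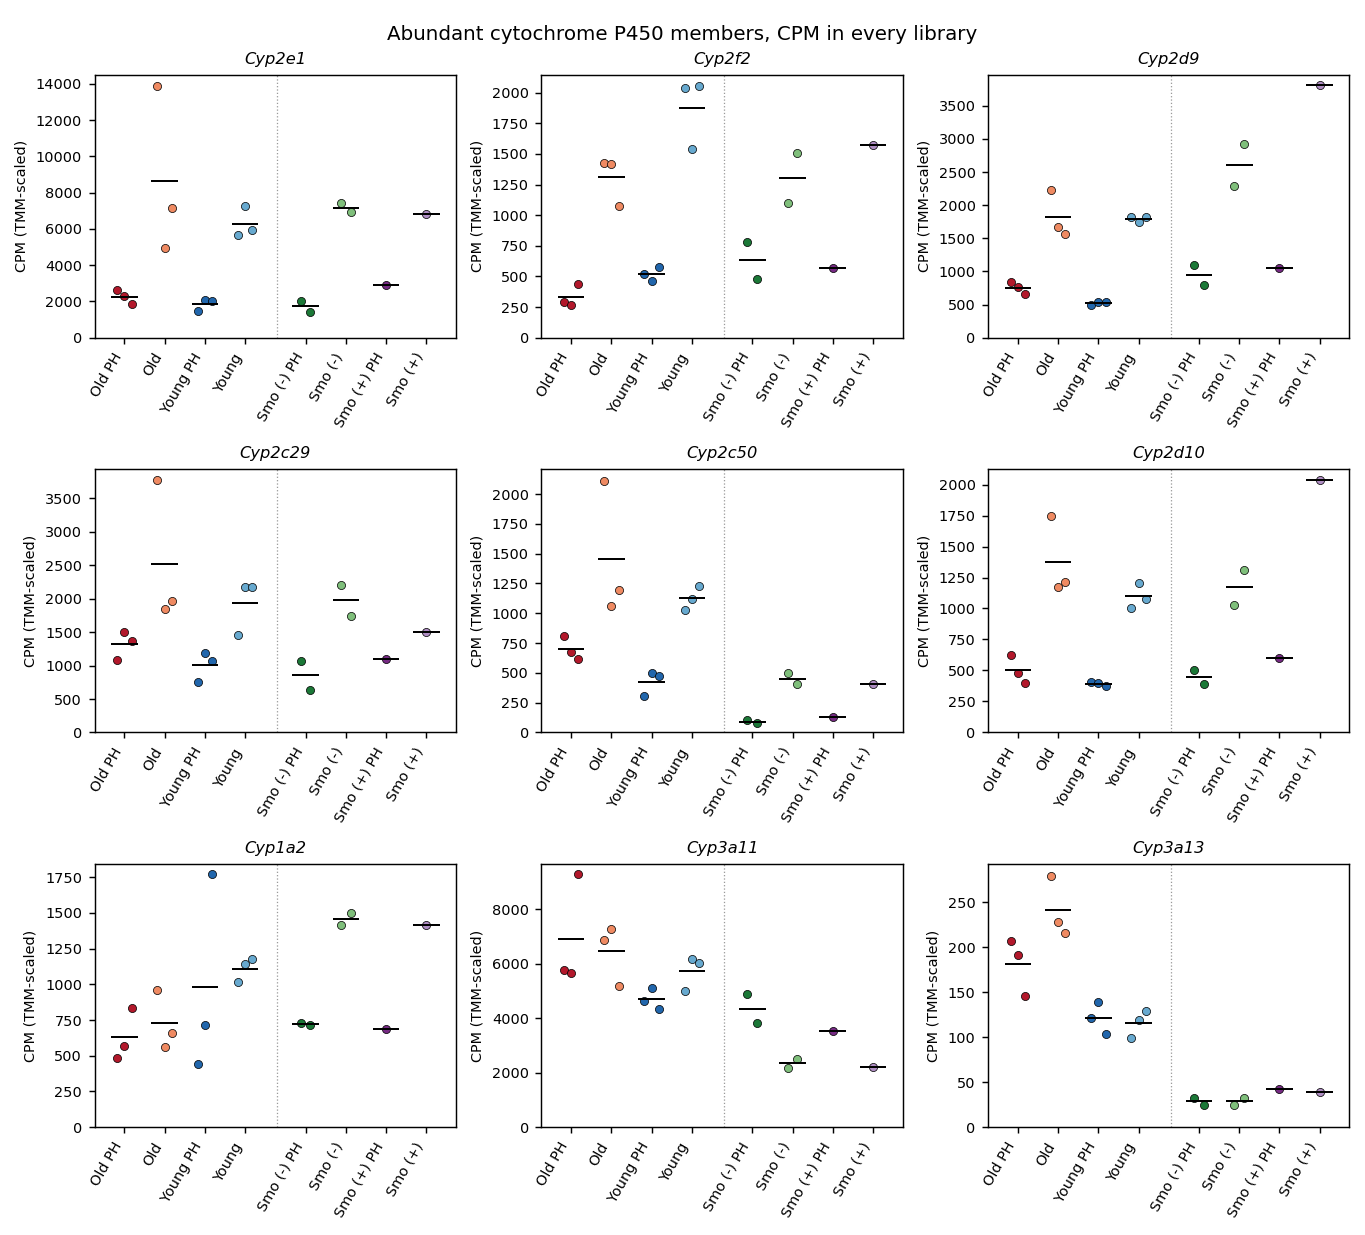
CPM of 9 abundant members in each library, with 1 point per mouse and a line at the group mean (the Smo (+) groups are 1 library each). Points of Young PH, Old PH and Smo (-) PH lie under those of their quiescent groups for Cyp2e1, Cyp2f2, Cyp2d9, Cyp2c29, Cyp2c50 and Cyp2d10; Cyp3a11 does not show this, and Cyp3a13 differs by age.

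Regenerating hepatocytes had less of many of these transcripts at both ages. In young mice 23 of the 43 tested members fell after PH and 3 rose, against 16.4% and 17.8% of all tested genes (34.2% called in all), and the median log2 fold change of the members was -0.92, against -0.01 over all genes. In old mice 17 fell and 3 rose, against 15.1% and 22.5% of all tested genes (37.6% in all), with a median of -0.71, against 0.08. All 17 that fell in old mice were among the 23 that fell in young mice (73.9% of them). These 2 comparisons share no library but come from the same fit, with a shared estimate of the spread. The like overlap over all tested genes is not given here. As a share of all gene counts the 60 members took 1.59% ± 0.27 in Young PH, against 2.67% ± 0.19 in Young, and 1.95% ± 0.08 in Old PH, against 2.73% ± 0.36 in Old (SD, n = 3 each). All 3 PH libraries lay below all 3 quiescent ones at each age (exact permutation test, two-sided, p = 0.1, the smallest that 3 against 3 allows).

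**Figure D2:**
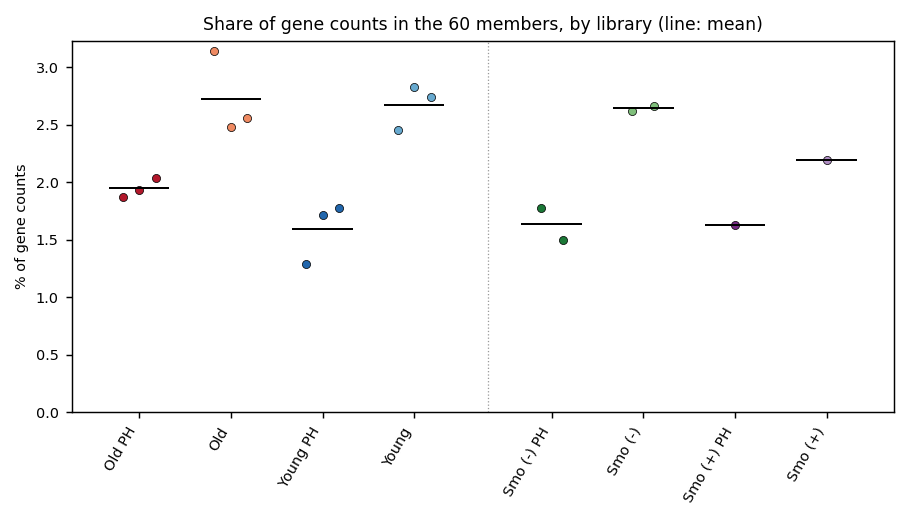
Share of gene counts taken by the 60 members, in percent, with 1 point per library and a line at the group mean. Old PH, Young PH and Smo (-) PH libraries sit between 1.29% and 2.04%, under every library of Old, Young and Smo (-), which sit between 2.46% and 3.14%.

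The fall included members of both ends of the lobule. Cyp2e1, a pericentral enzyme that oxidises ethanol and other small molecules, had 1455, 2097 and 2008 in Young PH libraries, against 5647, 7280.3 and 5944 in Young, and 2614, 2316 and 1877 in Old PH, against 13889, 4931 and 7141 in Old (CPM). At both ages every PH library of Cyp2e1 was below all quiescent ones, with a log2 fold change of -1.76 ± 0.33 (adjusted p = 0.000886) in young and -1.93 ± 0.33 (adjusted p = 0.000526) in old mice. Old 1 alone reached 13889 CPM, above the sum of the other 2 old libraries. Cyp2f2, a periportal enzyme that oxidises naphthalene, had 523, 460.0 and 579 in Young PH libraries, against 2038, 1539.6 and 2059 in Young, and 292, 268 and 435 in Old PH, against 1429, 1418 and 1079 in Old. For Cyp2f2, PH and quiescent libraries did not overlap at either age, with a log2 fold change of -1.85 ± 0.21 (adjusted p = 1.91e-05) in young and -1.98 ± 0.21 (adjusted p = 1.32e-05) in old mice. A P450 gene from each end of the lobule thus fell at each age. Pericentral genes outside the families went both ways in young mice. Glul had 334, 389 and 423 in Young PH, against 301, 227 and 300 in Young. Gulo had 318, 348 and 355 in Young PH, against 391, 401 and 379 in Young. The part of place in the lobule was not tested. Cyp2c29, a pericentral epoxygenase, had 755, 1182 and 1068 in Young PH libraries, against 1453, 2172 and 2173 in Young, and 1086, 1495 and 1365 in Old PH, against 3777, 1838 and 1961 in Old. Cyp2c29 had all its PH libraries below the quiescent ones at both ages, with a log2 fold change of -0.95 ± 0.28 (adjusted p = 0.0194) in young and -0.94 ± 0.28 (adjusted p = 0.0189) in old mice. The call of Cyp2c29 ended without any one of Young 2 (0.0651), Young 3 (0.0686) or Young PH 1 (0.0868). That of Cyp2c29 in old mice ended without either of Old 1 (0.0562) or Old PH 1 (0.0745). Cyp1a2, pericentral too and the enzyme of caffeine breakdown, had 445, 716 and 1774 in Young PH libraries, against 1013, 1140.1 and 1175 in Young, and 487, 569 and 834 in Old PH, against 963, 564 and 656 in Old. Cyp1a2 overlapped between PH and quiescent libraries at both ages, with a log2 fold change of -0.18 ± 0.39 (adjusted p = 0.761) in young, not called, and -0.21 ± 0.39 (adjusted p = 0.707) in old mice, not called. Young PH 3 (1774 CPM) stood above every quiescent young library and its 2 fellows below them.

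Of the 8 Cyp2d genes, 5 fell at both ages. Cyp2d9, a steroid hydroxylase that marks male mouse liver, had 497, 542 and 543 in Young PH libraries, against 1827, 1744 and 1817 in Young, and 841, 766 and 656 in Old PH, against 2222, 1665 and 1564 in Old. At both ages every PH library of Cyp2d9 was below all quiescent ones, with a log2 fold change of -1.77 ± 0.17 (adjusted p = 3.79e-06) in young and -1.27 ± 0.17 (adjusted p = 7.69e-05) in old mice. Cyp2d10 had 406, 397 and 377 in Young PH libraries, against 1007, 1205 and 1079 in Young, and 622, 481 and 398 in Old PH, against 1744, 1174 and 1216 in Old. For Cyp2d10, PH and quiescent libraries did not overlap at either age, with a log2 fold change of -1.48 ± 0.20 (adjusted p = 6.65e-05) in young and -1.46 ± 0.20 (adjusted p = 8.57e-05) in old mice. Cyp2d26 had 573, 628 and 609.7 in Young PH libraries, against 1046, 1091 and 1057 in Young, and 881, 728 and 628 in Old PH, against 1995, 1404 and 1459 in Old. Cyp2d26 had all its PH libraries below the quiescent ones at both ages, with a log2 fold change of -0.82 ± 0.17 (adjusted p = 0.00238) in young and -1.12 ± 0.17 (adjusted p = 0.00028) in old mice. Cyp2d22 had 134, 124 and 105 in Young PH libraries, against 326, 365 and 349.7 in Young, and 165, 152 and 144 in Old PH, against 409, 297 and 379.5 in Old. PH libraries of Cyp2d22 lay below every quiescent library of their age, with a log2 fold change of -1.52 ± 0.15 (adjusted p = 4.09e-06) in young and -1.24 ± 0.15 (adjusted p = 2.97e-05) in old mice. Cyp2d40 fell too, by 0.92 on the log2 scale in young and 0.74 in old mice. The 3 other tested genes of the subfamily (Cyp2d11, Cyp2d12 and Cyp2d34) stayed under 2.5 CPM and were not called. Summed over the subfamily, the log2 fold change was -1.38 ± 0.19 (adjusted p = 8.98e-05) in young and -1.25 ± 0.19 (adjusted p = 0.000227) in old mice. The call of Cyp2d40 in old mice ended without Old PH 3 (0.0508).

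Cyp2c genes, many of which make signalling epoxides from arachidonic acid, fell in 9 of 13 tested cases in young and 6 of 13 in old mice, while Cyp2c39 rose at both ages and Cyp2c55 in old mice. Cyp2c50 had 308, 501 and 470.2 in Young PH libraries, against 1027, 1122 and 1232 in Young, and 806, 671 and 616 in Old PH, against 2106, 1062 and 1199 in Old. At both ages every PH library of Cyp2c50 was below all quiescent ones, with a log2 fold change of -1.40 ± 0.26 (adjusted p = 0.000816) in young and -1.06 ± 0.25 (adjusted p = 0.00529) in old mice. Cyp2c54 had 69.9, 111 and 102 in Young PH libraries, against 255, 296 and 315 in Young, and 265, 169 and 161 in Old PH, against 983, 359 and 463 in Old. For Cyp2c54, PH and quiescent libraries did not overlap at either age, with a log2 fold change of -1.62 ± 0.33 (adjusted p = 0.00166) in young and -1.60 ± 0.33 (adjusted p = 0.00186) in old mice. Cyp2c23 had 166, 243 and 333 in Young PH libraries, against 579, 738 and 655 in Young, and 303, 284 and 221 in Old PH, against 695, 473 and 487 in Old. Cyp2c23 had all its PH libraries below the quiescent ones at both ages, with a log2 fold change of -1.41 ± 0.24 (adjusted p = 0.000468) in young and -1.03 ± 0.24 (adjusted p = 0.00417) in old mice. Cyp2c70, which makes the muricholic acids of mouse bile, had 319, 258 and 271 in Young PH libraries, against 598, 508 and 335 in Young, and 548, 757 and 604 in Old PH, against 830.0, 1241 and 935 in Old. PH libraries of Cyp2c70 lay below every quiescent library of their age, with a log2 fold change of -0.76 ± 0.22 (adjusted p = 0.016) in young and -0.65 ± 0.22 (adjusted p = 0.0318) in old mice. The call of Cyp2c70 ended without any one of Young 1 (0.0863), Young PH 2 (0.0669) or Young PH 3 (0.0546). That of Cyp2c70 in old mice ended with a gene-length correction (0.0604) and without any one of Old 2 (0.0989), Old PH 1 (0.115) or Old PH 3 (0.0871). Cyp2c37 had 45.3, 103 and 142 in Young PH libraries, against 230.0, 281 and 284 in Young, and 625, 295 and 118 in Old PH, against 1052, 541 and 448 in Old. For Cyp2c37, the young PH libraries lay below every young quiescent library and the old libraries overlapped, with a log2 fold change of -1.46 ± 0.51 (adjusted p = 0.042) in young and -0.97 ± 0.51 (adjusted p = 0.148) in old mice, not called. The call of Cyp2c37 ended without any one of Young 1 (0.0658), Young 2 (0.0933), Young 3 (0.0948), Young PH 1 (0.147) or Young PH 2 (0.0938). Cyp2c67 had 49.6, 84.1 and 152 in Young PH libraries, against 155, 214 and 152 in Young, and 293, 242 and 128 in Old PH, against 405, 442 and 281 in Old. For Cyp2c67, the young PH libraries lay below every young quiescent library and the old libraries overlapped, with a log2 fold change of -0.87 ± 0.36 (adjusted p = 0.0804) in young, not called, and -0.77 ± 0.36 (adjusted p = 0.11) in old mice, not called.

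Among less abundant Cyp2c genes, Cyp2c68 fell at both ages, with log2 fold changes of -0.90 ± 0.22 (adjusted p = 0.00589) and -0.75 ± 0.22 (adjusted p = 0.0157). The call of Cyp2c68 in old mice ended without either of Old PH 2 (0.0625) or Old PH 3 (0.0564). Cyp2c40 and Cyp2c69, both more abundant in female liver, passed the test in young mice. Cyp2c40 had 0.632, 0.643 and 1.16 in Young PH libraries, against 2.78, 4.78 and 2.82 in Young, and 7.88, 4.84 and 3.28 in Old PH, against 11.2, 3.83 and 4.34 in Old. For Cyp2c40, the young PH libraries lay below every young quiescent library and the old libraries overlapped, with a log2 fold change of -2.08 ± 0.47 (adjusted p = 0.00345) in young and -0.28 ± 0.43 (adjusted p = 0.642) in old mice, not called. Cyp2c69 had 0.412, 0.334 and 0.714 in Young PH libraries, against 2.13, 2.00 and 1.86 in Young, and 4.08, 1.42 and 0.832 in Old PH, against 4.91, 1.65 and 1.68 in Old. For Cyp2c69, the young PH libraries lay below every young quiescent library and the old libraries overlapped, with a log2 fold change of -2.03 ± 0.58 (adjusted p = 0.0152) in young and -0.38 ± 0.55 (adjusted p = 0.615) in old mice, not called. The call of Cyp2c69 ended without either of Young PH 1 (0.0575) or Young PH 2 (0.0666). The age difference in these responses was not called, at a log2 difference of 1.81 ± 0.63 (adjusted p = 0.122) for Cyp2c40 and 1.65 ± 0.79 (adjusted p = 0.258) for Cyp2c69. Cyp2c39 went the other way, with 3.19, 4.47 and 4.89 in Young PH libraries, against 0.678, 0.665 and 1.53 in Young, and 2.37, 1.38 and 4.55 in Old PH, against 1.44, 0.132 and 1.04 in Old. For Cyp2c39, the young PH libraries lay above every young quiescent library and the old libraries overlapped, with a log2 fold change of 2.12 ± 0.55 (adjusted p = 0.00871) in young and 1.64 ± 0.60 (adjusted p = 0.044) in old mice. The call of Cyp2c39 in old mice ended with limma-voom (0.0578), with RLE size factors (0.0529), in a fit of the groups compared alone (0.132) and without any one of Old 2 (0.127), Old 3 (0.0804), Old PH 1 (0.0589) or Old PH 3 (0.19).

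Cyp2c55, inducible through CAR and PXR in mouse liver, was the 1 member called for an age difference in the response to PH. It had 12.3, 31.9 and 24.6 in Young PH libraries, against 18.8, 21.0 and 25.3 in Young, and 40.1, 56.9 and 91.4 in Old PH, against 9.33, 12.2 and 17.9 in Old. For Cyp2c55, the young libraries overlapped and the old PH libraries lay above every old quiescent library, with a log2 fold change of 0.08 ± 0.34 (adjusted p = 0.885) in young, not called, and 2.25 ± 0.36 (adjusted p = 0.000322) in old mice. The difference of the responses, old minus young, was 2.17 ± 0.49 (adjusted p = 0.0334) on the log2 scale; of all genes 3.26% were called in this test, 2.27% higher and 0.983% lower, against 1 of 43 members. The call of Cyp2c55 ended without any one of Young 1 (0.0662), Young 2 (0.0671), Young 3 (0.0733), Young PH 1 (0.0566), Young PH 2 (0.0533), Young PH 3 (0.0676), Old 2 (0.0767) or Old PH 3 (0.0614).

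The other inducible members did not move together. Cyp1a1, the AHR target that oxidises polycyclic hydrocarbons, had 3.08, 1.16 and 12.7 in Young PH libraries, against 0.387, 0.633 and 0.452 in Young, and 3.70, 0.577 and 0.881 in Old PH, against 1.02, 0.397 and 0.694 in Old. For Cyp1a1, the young PH libraries lay above every young quiescent library and the old libraries overlapped, with a log2 fold change of 3.52 ± 0.84 (adjusted p = 0.00521) in young and 1.27 ± 0.88 (adjusted p = 0.275) in old mice, not called. Young PH 3 alone, which also had the most Cyp1a2, reached 12.7 CPM. The call of Cyp1a1 ended with limma-voom (0.056). Cyp2b10, the classic target of CAR, had 9.62, 7.02 and 3.78 in Young PH libraries, against 12.0, 19.0 and 29.7 in Young, and 11.6, 11.5 and 21.9 in Old PH, against 20.7, 8.26 and 24.1 in Old. For Cyp2b10, the young PH libraries lay below every young quiescent library and the old libraries overlapped, with a log2 fold change of -1.57 ± 0.43 (adjusted p = 0.012) in young and -0.24 ± 0.43 (adjusted p = 0.685) in old mice, not called. The call of Cyp2b10 ended without either of Young 3 (0.0679) or Young PH 3 (0.053). Cyp2a5, a coumarin hydroxylase, had 87.6, 310.3 and 513 in Young PH libraries, against 437, 523 and 760.4 in Young, and 72.4, 121 and 677 in Old PH, against 659, 234 and 389 in Old. Its PH and quiescent ranges overlapped at both ages, with a log2 fold change of -0.92 ± 0.72 (adjusted p = 0.362) in young, not called, and -0.56 ± 0.72 (adjusted p = 0.57) in old mice, not called. Its libraries spread widely within each PH group. Cyp3a11, the chief Cyp3a enzyme of mouse liver and a target of PXR, had 4637, 5116 and 4339.7 in Young PH libraries, against 4995, 6188 and 6041 in Young, and 5770.3, 5649 and 9313 in Old PH, against 6878, 7292 and 5207 in Old. Cyp3a11 overlapped between PH and quiescent libraries at both ages, with a log2 fold change of -0.29 ± 0.23 (adjusted p = 0.373) in young, not called, and 0.10 ± 0.23 (adjusted p = 0.775) in old mice, not called. Cyp3a11 was thus not called at either age, unlike Cyp2e1.

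Of the other Cyp3a genes, Cyp3a25 had 233, 293 and 244 in Young PH libraries, against 499.6, 661 and 606 in Young, and 381, 329.9 and 491 in Old PH, against 843, 705 and 491 in Old. Cyp3a25 had all its PH libraries below the quiescent ones at both ages, with a log2 fold change of -1.20 ± 0.21 (adjusted p = 0.00062) in young and -0.76 ± 0.21 (adjusted p = 0.0114) in old mice. The highest Old PH and the lowest Old library of Cyp3a25 were nearly equal (both 491 CPM). The call of Cyp3a25 in old mice ended without Old PH 2 (0.0558). Cyp3a59, whose promoter is printed beside that of Cyp3a25, had 20.9, 32.0 and 23.8 in Young PH libraries, against 31.3, 46.0 and 38.3 in Young, and 40.0, 42.1 and 83.7 in Old PH, against 68.3, 50.3 and 28.9 in Old. Cyp3a59 overlapped between PH and quiescent libraries at both ages, with a log2 fold change of -0.59 ± 0.31 (adjusted p = 0.168) in young, not called, and 0.17 ± 0.31 (adjusted p = 0.705) in old mice, not called. Cyp3a13 had 121, 139 and 103 in Young PH libraries, against 99.3, 119 and 129 in Young, and 207, 192 and 146 in Old PH, against 279.6, 229 and 216 in Old. For Cyp3a13, the young libraries overlapped and the old PH libraries lay below every old quiescent library, with a log2 fold change of 0.07 ± 0.17 (adjusted p = 0.797) in young, not called, and -0.41 ± 0.17 (adjusted p = 0.0689) in old mice, not called. Cyp3a44, a female-biased gene, was called higher at both ages from very few reads: it had 14, 24 and 8 in Young PH, against 1, 2 and 4 in Young, and 25, 7 and 10 in Old PH, against 0, 0 and 4 in Old (counts; adjusted p = 0.0379 in young and 0.025 in old). The call of Cyp3a44 ended without any one of Young 1 (0.125), Young 2 (0.107), Young 3 (0.0632), Young PH 1 (0.0762) or Young PH 2 (0.146). The call of Cyp3a44 in old mice ended without any one of Old 1 (0.0839), Old 2 (0.0881) or Old PH 1 (0.106).

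Cyp2j5, an epoxygenase of arachidonic acid, had 308, 335 and 321 in Young PH libraries, against 601, 720.2 and 714 in Young, and 415, 401 and 431 in Old PH, against 606, 705 and 605 in Old. For Cyp2j5, PH and quiescent libraries did not overlap at either age, with a log2 fold change of -1.08 ± 0.13 (adjusted p = 3.28e-05) in young and -0.62 ± 0.13 (adjusted p = 0.00251) in old mice. Cyp2j6 had 60.7, 60.6 and 56.3 in Young PH libraries, against 88.1, 95.7 and 92.0 in Young, and 67.7, 65.2 and 93.0 in Old PH, against 69.4, 89.0 and 77.6 in Old. For Cyp2j6, the young PH libraries lay below every young quiescent library and the old libraries overlapped, with a log2 fold change of -0.63 ± 0.14 (adjusted p = 0.00314) in young and -0.06 ± 0.14 (adjusted p = 0.758) in old mice, not called. Cyp2j9 had 6.02, 5.32 and 7.48 in Young PH libraries, against 20.2, 27.0 and 18.3 in Young, and 2.90, 1.60 and 4.45 in Old PH, against 3.59, 3.90 and 5.61 in Old. For Cyp2j9, the young PH libraries lay below every young quiescent library and the old libraries overlapped, with a log2 fold change of -1.80 ± 0.28 (adjusted p = 0.000235) in young and -0.56 ± 0.32 (adjusted p = 0.18) in old mice, not called. Cyp2a12, a steroid and bile acid hydroxylase, had 443, 512 and 556 in Young PH libraries, against 769, 770.0 and 850.1 in Young, and 540.3, 541 and 618 in Old PH, against 791, 818 and 736 in Old. At both ages every PH library of Cyp2a12 was below all quiescent ones, with a log2 fold change of -0.66 ± 0.14 (adjusted p = 0.00217) in young and -0.47 ± 0.14 (adjusted p = 0.0173) in old mice. The call of Cyp2a12 in old mice ended without either of Old PH 1 (0.0649) or Old PH 2 (0.0698). Cyp2u1, a hydroxylase of long-chain fatty acids, had 27.1, 35.2 and 60.1 in Young PH libraries, against 184, 159 and 163 in Young, and 15.6, 17.6 and 21.8 in Old PH, against 33.4, 61.8 and 23.9 in Old. For Cyp2u1, PH and quiescent libraries did not overlap at either age, with a log2 fold change of -2.05 ± 0.32 (adjusted p = 0.00024) in young and -1.11 ± 0.32 (adjusted p = 0.0151) in old mice. The call of Cyp2u1 in old mice ended without either of Old 2 (0.0673) or Old PH 1 (0.0572). Cyp2r1, which makes 25-hydroxyvitamin D, had 17.2, 16.5 and 15.3 in Young PH libraries, against 12.6, 15.6 and 15.8 in Young, and 23.7, 25.3 and 24.5 in Old PH, against 21.9, 20.4 and 17.9 in Old. For Cyp2r1, the young libraries overlapped and the old PH libraries lay above every old quiescent library, with a log2 fold change of 0.16 ± 0.12 (adjusted p = 0.362) in young, not called, and 0.29 ± 0.12 (adjusted p = 0.0829) in old mice, not called. The vitamin D enzyme was thus called at neither age.

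**Figure D3:**
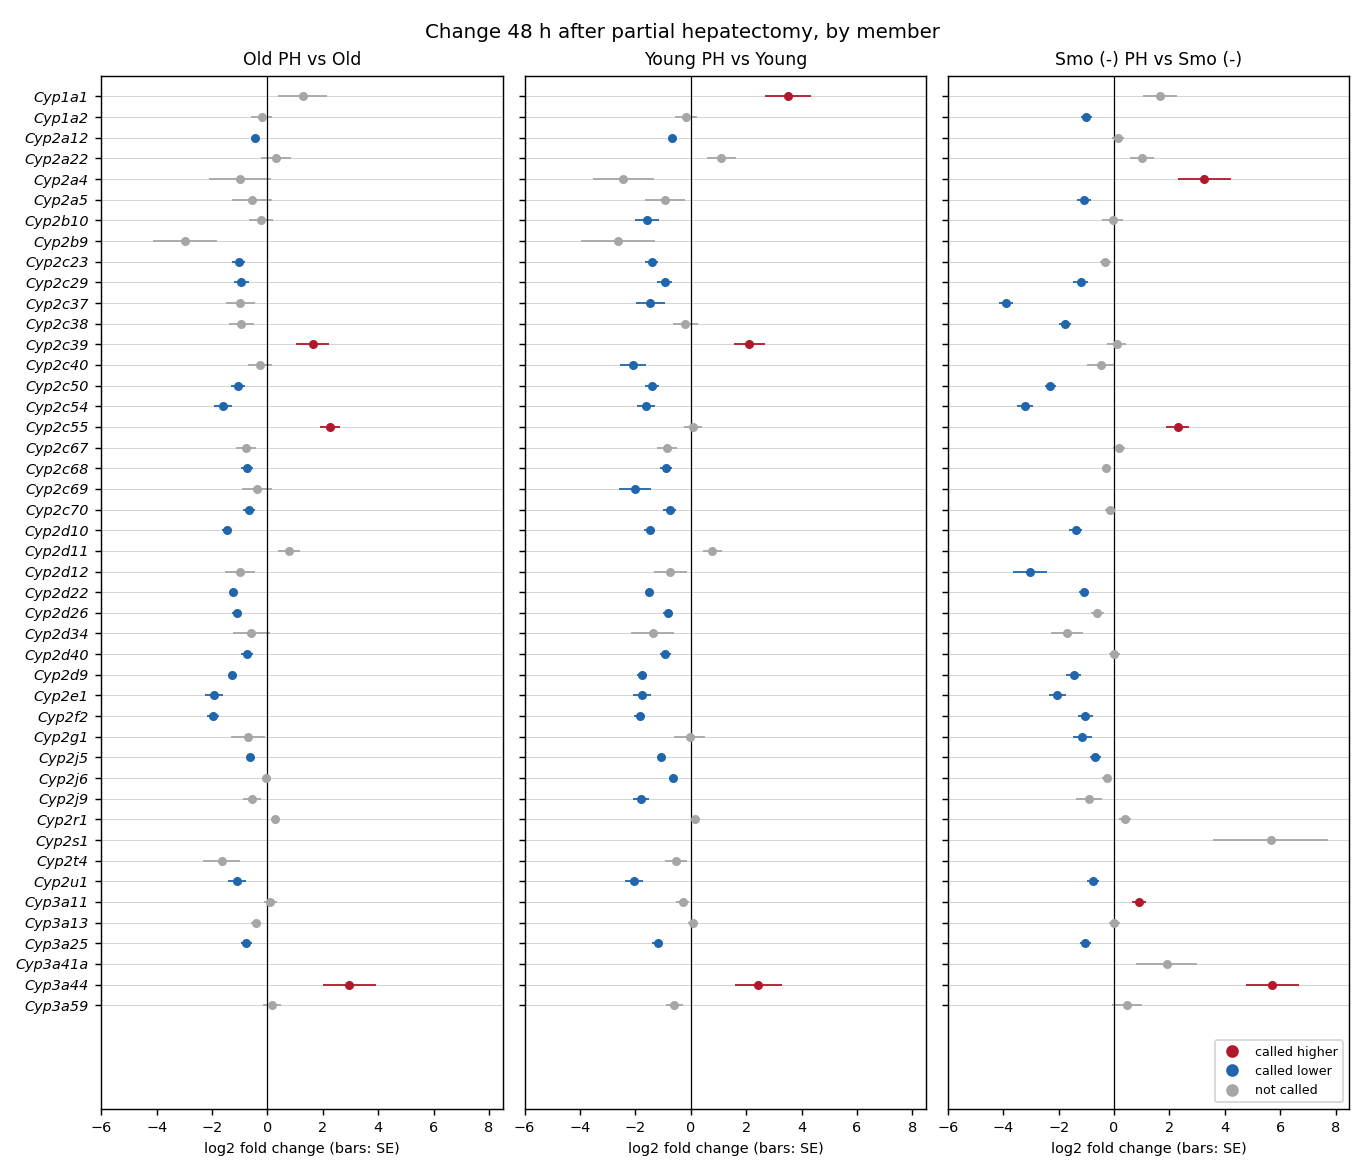
log2 fold change 48 h after PH for every tested member, by comparison, with bars for the SE; red was called higher, blue lower and grey not called. Cyp2e1, Cyp2f2, Cyp2d9, Cyp2d10, Cyp2d22 and Cyp3a25 lie left of 0 in all 3 comparisons, and Cyp2c55 lies right of 0 in old and Smo (-) mice but near 0 in young mice (0.08).

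Other measures moved with this fall. Over all tested genes 16.4% fell and 17.8% rose in young mice, and 15.1% and 22.5% in old mice. Of 5 hepatocyte markers 4 were called lower after PH at each age, and their sum was 44926 to 52762 CPM in Young PH, against 73123 to 93589 in Young, and 60365 to 84238 in Old PH, against 124289 to 173361 in Old. All 10 proliferation genes rose at both ages, as did 10 of 11 acute phase genes in young and 7 of 11 in old mice. Of 13 male-biased genes outside these families 11 fell in young and 6 in old mice, among them Hsd3b5, at a log2 fold change of -4.46 ± 0.65 (adjusted p = 0.000148) in young and -2.55 ± 0.60 (adjusted p = 0.00489) in old mice. Macrophage markers summed to 59.96 to 69.3 CPM in Young PH, against 45.4 to 70.4 in Young, and to 21.5 to 63.4 in Old PH, against 73.5 to 407 in Old; 1 of the 7 was called higher in young and 6 lower in old mice. Endothelial markers were called lower for 3 of 6 in young and 6 of 6 in old mice. The part of these measures in the members' fall was not tested.

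In quiescent hepatocytes members differed both ways between Old and Young. Of 43 tested members 11 were higher in Old and 5 lower, against 29.3% and 33.7% of all genes (63.0% called in all), and the median was 0.29, against -0.05 over all genes. The split depended on exon length: after a correction that takes out, in each library, the smooth trend of counts with exon length, 3 members were higher and 10 lower, with a median of -0.07. The 3 were Cyp2c70, Cyp2d12 and Cyp3a13, and the 10 were Cyp1a2, Cyp2c23, Cyp2c55, Cyp2d11, Cyp2f2, Cyp2j5, Cyp2j6, Cyp2j9, Cyp2t4 and Cyp2u1. The share of gene counts was 2.73% ± 0.36 in Old, against 2.67% ± 0.19 in Young (SD, n = 3 each; exact permutation test, two-sided, p = 0.8).

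Calls that held in every alternative tried were higher for Cyp2c70 and Cyp3a13 and lower for Cyp2j9, Cyp2t4 and Cyp2u1. Exons of Cyp2t4 and Cyp2u1 overlap a gene on the other strand, whose reads no alternative set apart. Cyp3a13 had 279.6, 229 and 216 in Old, against 99.3, 119 and 129 in Young (CPM). Cyp3a13 was higher in every Old library than in any Young library, with a log2 fold change of 1.06 ± 0.17 (adjusted p = 0.000104). Cyp2c70 had 830.0, 1241 and 935 in Old, against 598, 508 and 335 in Young (CPM). Cyp2c70 was higher in every Old library than in any Young library, with a log2 fold change of 1.06 ± 0.22 (adjusted p = 0.000909). Cyp2j9 had 3.59, 3.90 and 5.61 in Old, against 20.2, 27.0 and 18.3 in Young (CPM). Cyp2j9 was lower in every Old library than in any Young library, with a log2 fold change of -2.32 ± 0.30 (adjusted p = 1.52e-05). Cyp2u1 had 33.4, 61.8 and 23.9 in Old, against 184, 159 and 163 in Young (CPM). Cyp2u1 was lower in every Old library than in any Young library, with a log2 fold change of -2.09 ± 0.32 (adjusted p = 7.74e-05). Cyp2t4, a gene of low level, had 0.539, 0.198 and 0.174 in Old, against 1.90, 1.46 and 1.69 in Young (CPM). Cyp2t4 was lower in every Old library than in any Young library, with a log2 fold change of -2.45 ± 0.48 (adjusted p = 0.00054). Cyp2f2, the periportal member, had 1429, 1418 and 1079 in Old, against 2038, 1539.6 and 2059 in Young (CPM). Cyp2f2 was lower in every Old library than in any Young library, with a log2 fold change of -0.52 ± 0.21 (adjusted p = 0.0411). The call of Cyp2f2 ended with limma-voom (0.0533), with RLE size factors (0.0513), with no filter on low counts (0.0675) and without any one of Young 1 (0.128), Young 3 (0.117), Old 1 (0.0892), Old 2 (0.0746) or Old 3 (0.249).

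Of the other Cyp2c genes Cyp2c37, Cyp2c54, Cyp2c67 and Cyp2c68 were called higher in Old, while Cyp2c40, Cyp2c50 and Cyp2c69 of the same cluster were not called (adjusted p = 0.0819, 0.214 and 0.473). Cyp2c37 had 1052, 541 and 448 in Old, against 230.0, 281 and 284 in Young (CPM). Cyp2c37 was higher in every Old library than in any Young library, with a log2 fold change of 1.36 ± 0.51 (adjusted p = 0.0321). Cyp2c54 had 983, 359 and 463 in Old, against 255, 296 and 315 in Young (CPM). Cyp2c54 was higher in every Old library than in any Young library, with a log2 fold change of 1.06 ± 0.32 (adjusted p = 0.0104). Cyp2c67 had 405, 442 and 281 in Old, against 155, 214 and 152 in Young (CPM). Cyp2c67 was higher in every Old library than in any Young library, with a log2 fold change of 1.11 ± 0.36 (adjusted p = 0.0156). Cyp2c68 had 326, 252 and 199 in Old, against 115, 176 and 126 in Young (CPM). Cyp2c68 was higher in every Old library than in any Young library, with a log2 fold change of 0.90 ± 0.22 (adjusted p = 0.00272). The call of Cyp2c37 ended with limma-voom (0.0622) and without any one of Young 1 (0.0877), Young 2 (0.0707), Young 3 (0.0667) or Old 1 (0.104). The call of Cyp2c67 ended without either of Young 1 (0.0506) or Young 3 (0.057). With the gene-length correction none of these 4 was called (adjusted p = 0.138 to 0.181). Summed over the Cyp2c subfamily, the log2 fold change was 0.55 ± 0.24 (adjusted p = 0.0604), not called. The sum of Cyp2d was not called either, at 0.28 ± 0.19 (adjusted p = 0.21). In the Cyp2d cluster Cyp2d26 (0.60 ± 0.17, adjusted p = 0.00755) and Cyp2d40 (1.04 ± 0.20, adjusted p = 0.000531) were higher, and so was Cyp2r1 (0.45 ± 0.12, adjusted p = 0.00607). With the correction the adjusted p was 0.622, 0.0509 and 0.981, and Cyp2r1 turned to -0.0042. Cyp2d12, at 0.226 to 1.26 CPM, was higher too (1.58 ± 0.55, adjusted p = 0.021), and Cyp2d11, at 0.264 to 1.33 CPM, lower (-1.06 ± 0.39, adjusted p = 0.0291). The call of Cyp2d12 ended without any one of Young 3 (0.0785), Old 2 (0.0715) or Old 3 (0.0501). The call of Cyp2d11 ended with no filter on low counts (0.0627), in a fit of the groups compared alone (0.0744) and without any one of Young 1 (0.0659), Young 2 (0.0704), Old 1 (0.1) or Old 2 (0.163).

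The female-biased Cyp2b9 varied widely between mice. Cyp2b9 had 2.51, 7.998 and 33.7 in Old, against 0.0968, 4.31 and 1.33 in Young (CPM). Libraries of Cyp2b9 overlapped between the groups, with a log2 fold change of 2.95 ± 1.13 (adjusted p = 0.0344). Old 3 alone reached 33.7 CPM. The call of Cyp2b9 ended with DESeq2 (0.095), with a gene-length correction (0.0751) and without any one of Young 1 (0.0914), Young 3 (0.103) or Old 3 (0.275). Its neighbour Cyp2b13, with a promoter that differs at 2 of 300 bases, was not tested and had 0, 25 and 39 counts in Old, against 0, 0 and 1 in Young. The same 2 old mice thus had the most of both. The male-biased Cyp2d9 had a log2 fold change of 0.02 ± 0.17 (adjusted p = 0.938), and Cyp2a4 of -0.79 ± 1.05 (adjusted p = 0.53).

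**Figure D4:**
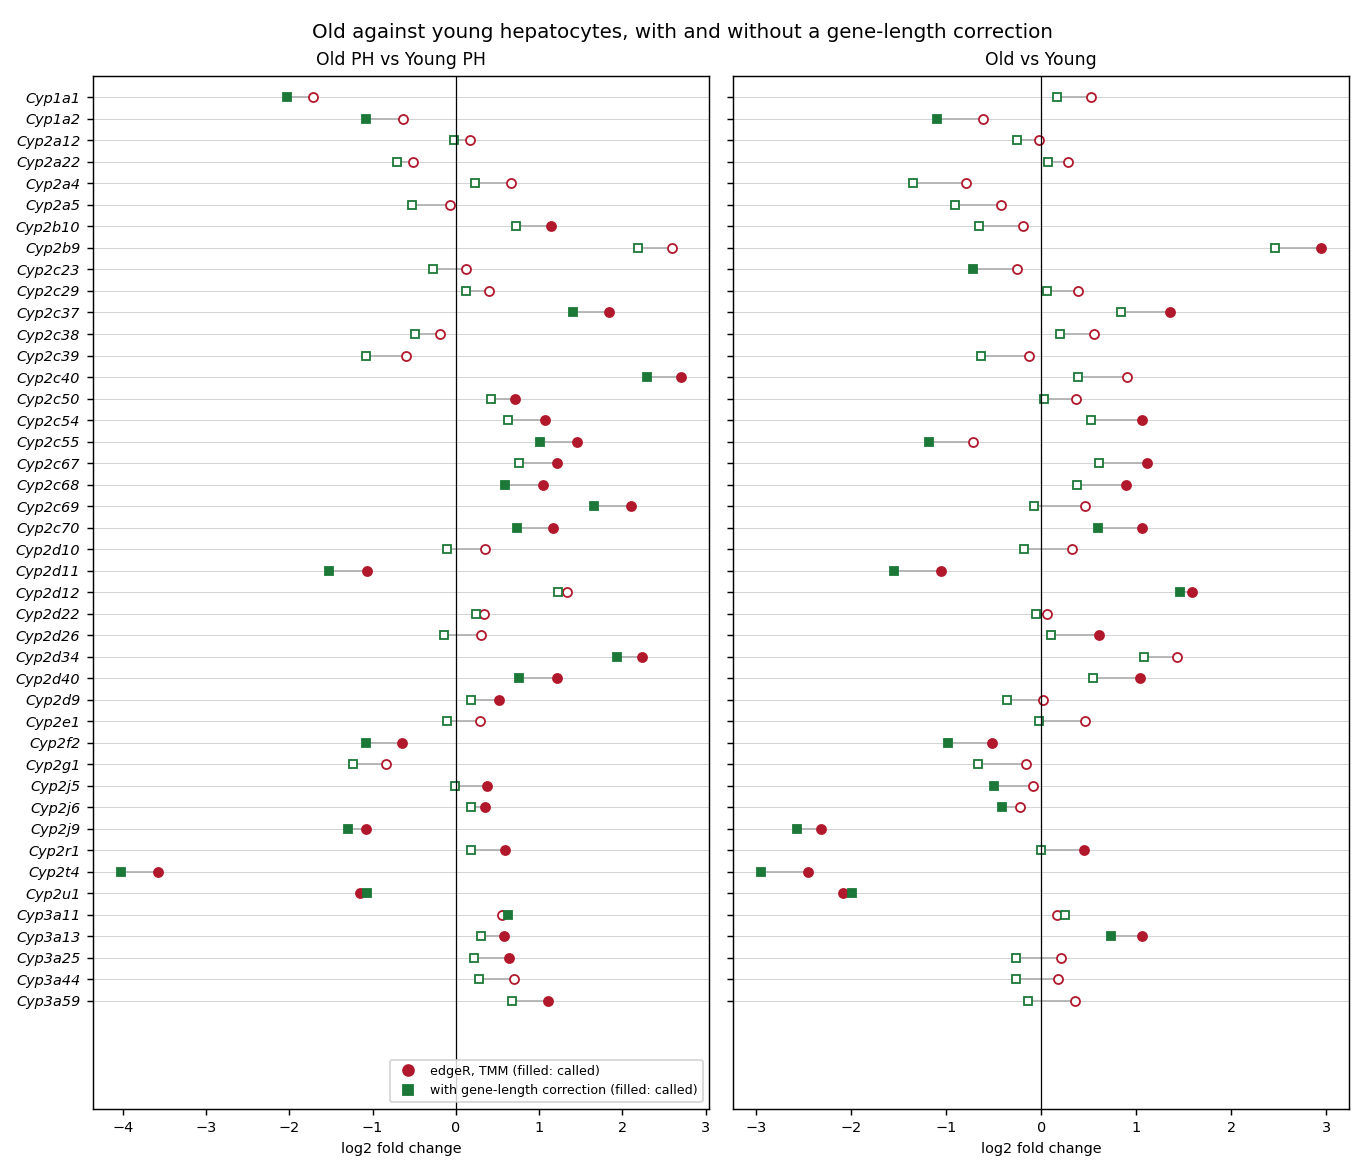
log2 fold change of old against young hepatocytes for the 43 tested members, 48 h after PH and in quiescent mice; circles show edgeR with TMM scaling, squares the same with a gene-length correction, and filled symbols were called. The correction moves 41 of 43 members to lower values in each comparison; Cyp2j9, Cyp2t4 and Cyp2u1 stay left of 0 and Cyp2c70 right of it.

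Regenerating hepatocytes of old mice had more of many Cyp2c transcripts than those of young mice. Of 43 tested members, 19 were higher in Old PH and 5 lower, against 29.7% and 32.4% of all genes (62.1% in all), and the median was 0.52, against -0.07 over all genes. With the gene-length correction 9 were higher and 7 lower, with a median of 0.19. The members' share of gene counts was 1.95% ± 0.08 in Old PH, against 1.59% ± 0.27 in Young PH (SD, n = 3 each; exact permutation test, two-sided, p = 0.1), and p was 0.4 with mitochondrial and long noncoding genes left out of the total. Cyp2c40 had 7.88, 4.84 and 3.28 in Old PH, against 0.632, 0.643 and 1.16 in Young PH (CPM). Cyp2c40 was higher in every Old PH library than in any Young PH library, with a log2 fold change of 2.71 ± 0.47 (adjusted p = 0.000222). Cyp2c55 had 40.1, 56.9 and 91.4 in Old PH, against 12.3, 31.9 and 24.6 in Young PH (CPM). Cyp2c55 was higher in every Old PH library than in any Young PH library, with a log2 fold change of 1.45 ± 0.34 (adjusted p = 0.00214). Cyp2d40 had 76.0, 67.3 and 48.4 in Old PH, against 20.1, 26.2 and 36.2 in Young PH (CPM). Cyp2d40 was higher in every Old PH library than in any Young PH library, with a log2 fold change of 1.21 ± 0.20 (adjusted p = 0.000163). These and Cyp2c68 and Cyp2c70 (log2 fold change 1.05 and 1.17) were called higher in every alternative tried. Cyp2c37 had 625, 295 and 118 in Old PH, against 45.3, 103 and 142 in Young PH (CPM). Libraries of Cyp2c37 overlapped between the groups, with a log2 fold change of 1.84 ± 0.52 (adjusted p = 0.00718). Cyp2c69 had 4.08, 1.42 and 0.832 in Old PH, against 0.412, 0.334 and 0.714 in Young PH (CPM). Cyp2c69 was higher in every Old PH library than in any Young PH library, with a log2 fold change of 2.11 ± 0.59 (adjusted p = 0.00672). The call of Cyp2c37 ended without Old PH 1 (0.0562). The call of Cyp2c69 ended without Old PH 1 (0.0687).

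The other members called higher in Old PH were Cyp2b10 (1.14), Cyp2c50 (0.71), Cyp2c54 (1.07), Cyp2c67 (1.21), Cyp2d9 (0.52), Cyp2d34 (2.24), Cyp2j5 (0.37), Cyp2j6 (0.35), Cyp2r1 (0.59), Cyp3a13 (0.58), Cyp3a25 (0.64) and Cyp3a59 (1.11), with log2 fold changes in brackets. With the gene-length correction all of these but Cyp2d34 lost their call, and Cyp2j5 turned to -0.0059. The call of Cyp2b10 ended without any one of Young PH 2 (0.0693), Young PH 3 (0.125) or Old PH 3 (0.165). The call of Cyp2c50 ended without either of Young PH 1 (0.109) or Old PH 1 (0.085). The call of Cyp2c54 ended without Old PH 1 (0.0532). The call of Cyp2d34 ended without any one of Young PH 1 (0.0539), Young PH 2 (0.0575), Old PH 1 (0.0614) or Old PH 2 (0.0657). The call of Cyp2d9 ended without either of Young PH 1 (0.0533) or Old PH 1 (0.0616). The call of Cyp3a25 ended without either of Young PH 1 (0.0594) or Old PH 3 (0.0754). The call of Cyp3a59 ended without Old PH 3 (0.0523). The call of Cyp2j5 ended without any one of Young PH 1 (0.0761), Young PH 3 (0.0537), Old PH 1 (0.0503) or Old PH 3 (0.0569). The call of Cyp2j6 ended with DESeq2 (0.0541), with limma-voom (0.0513), with RLE size factors (0.0621), with a filter of CPM above 1 (0.0693), without mitochondrial and long noncoding genes (0.0622) and without any one of Young PH 1 (0.0808), Young PH 2 (0.0668), Young PH 3 (0.11) or Old PH 3 (0.26). Lower in Old PH were the 5 that were lower in Old: Cyp2t4 (-3.58 ± 0.55, adjusted p = 8.4e-05), Cyp2u1 (-1.15 ± 0.32, adjusted p = 0.00634), Cyp2j9 (-1.08 ± 0.30, adjusted p = 0.00657), Cyp2d11 (-1.07 ± 0.35, adjusted p = 0.0171) and Cyp2f2 (-0.65 ± 0.21, adjusted p = 0.0147). The call of Cyp2d11 ended without any one of Young PH 2 (0.0765), Young PH 3 (0.051) or Old PH 1 (0.0524). The call of Cyp2f2 ended without any one of Young PH 3 (0.0586), Old PH 1 (0.0606) or Old PH 2 (0.0761).

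Hepatocyte markers differed between the ages as well. Their sum was 124289 to 173361 CPM in Old, against 73123 to 93589 in Young, and 60365 to 84238 in Old PH, against 44926 to 52762 in Young PH, with no overlap in either comparison. Of the 5, 2 were called higher and 1 lower in Old (median log2 fold change 0.59), and 3 higher and 1 lower in Old PH (median 0.66). Macrophage markers differed by age in quiescent mice, with all 7 called higher and a sum of 73.5 to 407 CPM in Old, against 45.4 to 70.4 in Young, and 8 of 11 acute phase genes were higher as well. Between Old and Young 63.0% of all tested genes were called, 29.3% higher and 33.7% lower, with a median log2 fold change of -0.05. Of 23 tested receptors and factors that control P450 genes, 1 was higher and 13 were lower in Old (median -0.59). Among them were the AHR partner Arnt (-1.58 ± 0.12, adjusted p = 1.69e-07) and the corepressor Ncor1 (-1.80 ± 0.13, adjusted p = 1.01e-07). Of 19 redox partners and genes of heme supply 10 were higher and 3 lower (median 0.57), among them Cyb5a, which passes electrons to P450 enzymes (1.18 ± 0.21, adjusted p = 0.000267), and Alas1, the first enzyme of heme synthesis (-1.68 ± 0.25, adjusted p = 6.06e-05). The values of these lists are without the gene-length correction, on which the split of the members by age depended. The part of these lists in the members' age differences was not tested. Depth and library composition differed without overlap between old and young libraries, so that age cannot be told apart from them.

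**Figure D5:**
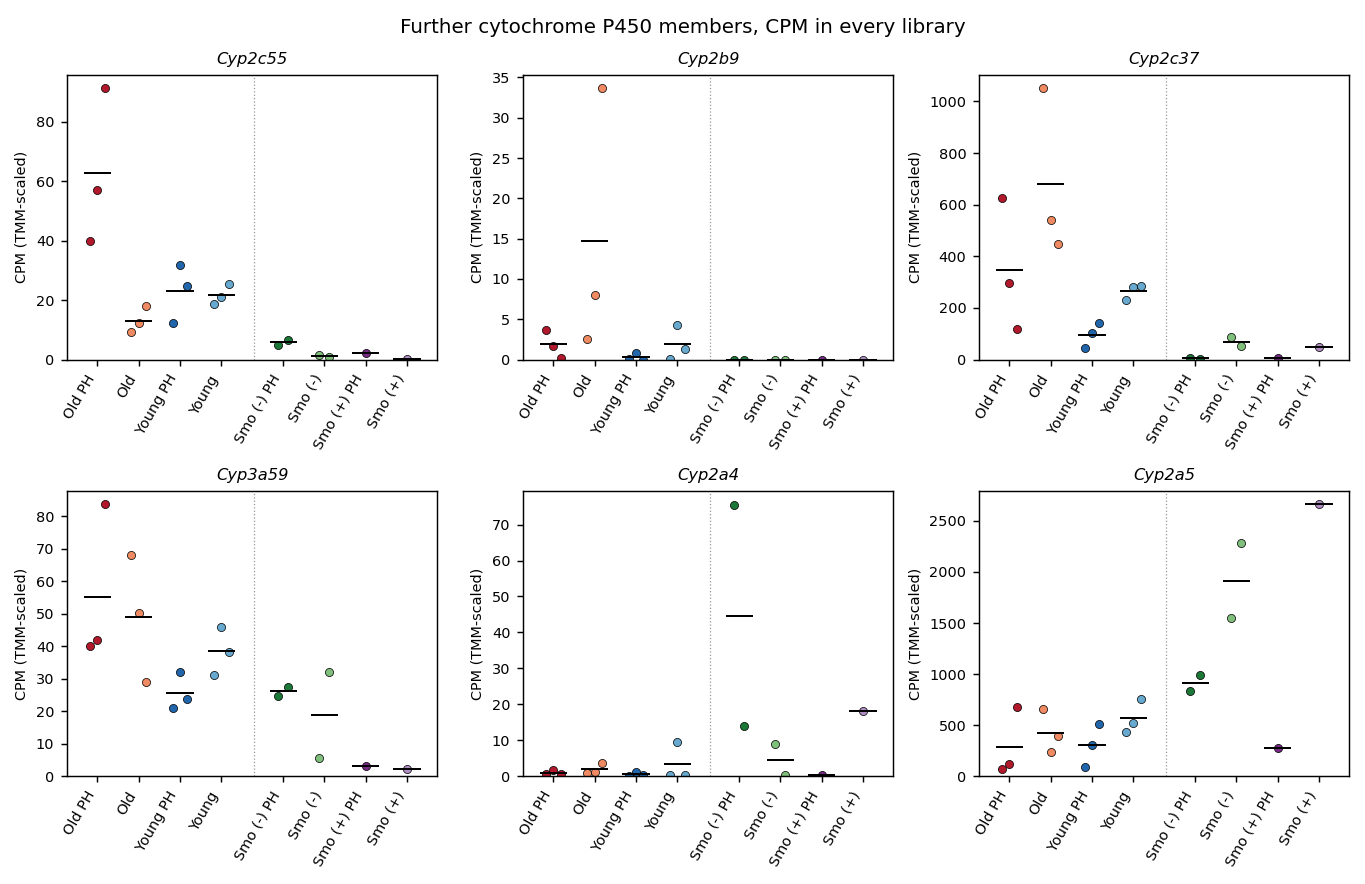
CPM of 6 further members in each library, with 1 point per mouse and a line at the group mean. Cyp2c55 reaches 40.1 to 91.4 CPM in Old PH, above every other library; Cyp2b9 is at 0 in all Smo libraries; and Cyp2a4 is highest in 1 Smo (-) PH library (75.5 CPM), the other being at 13.9 CPM, under Smo (+) at 18.3 CPM.

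Loss of Smo was set against 1 control mouse per time, so that a p assumes that a lone Smo (+) library varies like the Smo (-) pairs. In quiescent hepatocytes 1 of 41 tested members was higher in Smo (-) and 2 were lower, against 13.9% and 13.5% of all genes (27.4% in all), with a median of 0.04, against -0.00 over all genes. Cyp2d40 had 73.8 and 95.5 in Smo (-), against 168 in the lone Smo (+) library (CPM), a log2 fold change of -0.99 ± 0.23 (adjusted p = 0.0153). That call held in every alternative, but none could leave out the lone Smo (+) library on which it rests. Cyp3a25 had 716 and 725 in Smo (-), against 1224 in the lone Smo (+) library, a log2 fold change of -0.76 ± 0.22 (adjusted p = 0.0331). The call of Cyp3a25 ended in a fit of the groups compared alone (0.0758), with a gene-length correction (0.0553) and without Smo (-) 1 (0.0615). Its near copy Cyp3a59 had 5.72 and 32.1 in Smo (-), against 2.21 in the lone Smo (+) library, a log2 fold change of 3.09 ± 0.91 (adjusted p = 0.0346). The call of Cyp3a59 ended with DESeq2 (0.0814) and with limma-voom (0.235). The Smo (-) libraries of Cyp3a59 lie far apart. In the lone Smo (+) library, which also carried 22.5% mitochondrial counts, macrophage markers summed to 375 CPM and endothelial markers to 599.8 CPM, against 71.7 to 105 and 98.2 to 204 in Smo (-). All 7 and all 6 of these markers, and 9 of 11 acute phase genes, were called lower in Smo (-), and their part in the member results was not tested.

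After PH no member was called between Smo (-) PH and Smo (+) PH, where 0.125% of all genes were (0.0366% higher and 0.0879% lower). At an unadjusted p under 0.05 there were 7 of 41 members, against 796 of all 13654 genes. DESeq2 called 2 members and limma-voom 1. Cyp2e1 had 2043 and 1423 in Smo (-) PH, against 2896 in the lone Smo (+) PH library (CPM). Cyp2f2 had 784 and 481 in Smo (-) PH, against 569 in the lone Smo (+) PH library, and Cyp3a11 had 4905 and 3819 in Smo (-) PH, against 3528 in the lone Smo (+) PH library. The Smo (+) PH value of Cyp2f2 lay between the Smo (-) PH values. Cyp3a59 again had more in both Smo (-) PH libraries (24.7 and 27.5 in Smo (-) PH, against 3.20 in the lone Smo (+) PH library), with a log2 fold change of 3.03 ± 0.83 (adjusted p = 0.488).

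The Smo effect at 48 h minus that at 0 h was called for 3 of 41 members, 2 higher and 1 lower, against 4.60% and 6.14% of all genes (10.7% in all). Cyp2a5 had 835 and 988 in Smo (-) PH, against 278 in the lone Smo (+) PH library, and 1545 and 2283 in Smo (-), against 2661 in the lone Smo (+) library (CPM), a difference of 2.19 ± 0.44 (adjusted p = 0.0265). Cyp2a5 was called in every alternative, none of which could leave out a lone Smo (+) library. Cyp2a4, a steroid hydroxylase that is its near copy, had 75.5 and 13.9 in Smo (-) PH, against 0.400 in the lone Smo (+) PH library, and 8.83 and 0.366 in Smo (-), against 18.3 in the lone Smo (+) library, a difference of 8.75 ± 2.06 (adjusted p = 0.0357). The call of Cyp2a4 ended with limma-voom (0.119). The Smo (-) replicates of Cyp2a4 were far apart at both times. Cyp2c54 had 35.7 and 18.7 in Smo (-) PH, against 65.8 in the lone Smo (+) PH library, and 288 and 221 in Smo (-), against 189 in the lone Smo (+) library, a difference of -1.71 ± 0.47 (adjusted p = 0.0496). The call of Cyp2c54 ended with RLE size factors (0.0532), with a filter of CPM above 1 (0.0589), without mitochondrial and long noncoding genes (0.0513) and without Smo (-) 1 (0.0699).

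Within Smo (-) mice the response to PH again ran mostly downward. Of 41 tested members 17 fell and 4 rose, against 14.2% and 16.0% of all genes (30.2% in all), with a median of -0.48, against 0.01. Of the 17, 12 were among the 23 of young mice (70.6% and 52.2%) and 11 among the 17 of old mice (64.7% of each). The 11 that fell in all 3 were Cyp2c29, Cyp2c50, Cyp2c54, Cyp2d9, Cyp2d10, Cyp2d22, Cyp2e1, Cyp2f2, Cyp2j5, Cyp2u1 and Cyp3a25. The like overlaps over all tested genes are not given here, so these counts cannot be set against them. Cyp2e1 had 2043 and 1423 in Smo (-) PH, against 7407 and 6904 in Smo (-) (CPM), a log2 fold change of -2.05 ± 0.29 (adjusted p = 0.000902). Cyp2c37 fell most, with 5.23 and 4.15 in Smo (-) PH, against 86.6 and 53.3 in Smo (-), a log2 fold change of -3.90 ± 0.26 (adjusted p = 1.35e-05). Cyp2c54 had 35.7 and 18.7 in Smo (-) PH, against 288 and 221 in Smo (-), a log2 fold change of -3.23 ± 0.30 (adjusted p = 7.88e-05). Cyp2c50 had 101 and 80.3 in Smo (-) PH, against 496 and 403 in Smo (-), a log2 fold change of -2.31 ± 0.20 (adjusted p = 5.95e-05). All 4 are pericentral genes, and all 7 tested members of the pericentral list fell here, as did the periportal Cyp2f2 (-1.04 ± 0.28, adjusted p = 0.0198). Of 10 pericentral genes outside the families 3 fell and 1 rose (median -0.55). Among these 10, Lect2 rose (0.85 ± 0.16, adjusted p = 0.00374), and Oat (-0.01 ± 0.22, adjusted p = 0.984) and Gulo (0.07 ± 0.19, adjusted p = 0.812) did not pass the test. Cyp1a2, which did not pass the test in wild-type mice, had 728 and 718 in Smo (-) PH, against 1415 and 1499 in Smo (-), a log2 fold change of -1.01 ± 0.20 (adjusted p = 0.00516). The lone Smo (+) libraries moved the same way for Cyp1a2, with 685 in Smo (+) PH, against 1418 in Smo (+). So did those of Cyp2e1 (2896 against 6827), Cyp2c37 (5.80 against 47.0) and Cyp2c50 (128 against 404), while Cyp2j5 did not (356 against 332). With 1 library per time, the response in Smo (+) mice was not tested.

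Other falls in Smo (-) mice differed in how far they depended on 1 library. Cyp2d9 (-1.46), Cyp2d10 (-1.38), Cyp2d12 (-3.02), Cyp2d22 (-1.09), Cyp2c38 (-1.76) and Cyp3a25 (-1.04, as log2 fold changes) were called in every alternative. The call of Cyp2a5 ended without Smo (-) PH 1 (0.0664). The call of Cyp2c29 ended without Smo (-) PH 2 (0.0997). The call of Cyp2f2 ended without either of Smo (-) 2 (0.0907) or Smo (-) PH 2 (0.166). The call of Cyp2g1 ended with DESeq2 (0.119) and without any one of Smo (-) 2 (0.0749), Smo (-) PH 1 (0.191) or Smo (-) PH 2 (0.146). The call of Cyp2j5 ended without either of Smo (-) 2 (0.0638) or Smo (-) PH 2 (0.323). The call of Cyp2u1 ended without either of Smo (-) 2 (0.07) or Smo (-) PH 2 (0.107). Of the members that rose, Cyp2c55 had 4.93 and 6.59 in Smo (-) PH, against 1.53 and 0.792 in Smo (-) (CPM), a log2 fold change of 2.30 ± 0.41 (adjusted p = 0.00299), called in every alternative. The lone libraries of the control had 2.35 CPM of Cyp2c55 in Smo (+) PH, against 0.316 in Smo (+). Cyp3a44 had 25 and 55 in Smo (-) PH, against 1 and 0 in Smo (-), in counts (adjusted p = 0.0021). Cyp2a4 had 75.5 and 13.9 in Smo (-) PH, against 8.83 and 0.366 in Smo (-), a log2 fold change of 3.26 ± 0.96 (adjusted p = 0.0302), while Cyp2a5 had 835 and 988 in Smo (-) PH, against 1545 and 2283 in Smo (-), a log2 fold change of -1.07 ± 0.25 (adjusted p = 0.012). Cyp3a11 had 4905 and 3819 in Smo (-) PH, against 2192 and 2515 in Smo (-), a log2 fold change of 0.89 ± 0.26 (adjusted p = 0.0286). The call of Cyp2a4 ended with DESeq2 (0.182), with limma-voom (0.064) and without Smo (-) 2 (0.0964). The call of Cyp3a11 ended without any one of Smo (-) 1 (0.107), Smo (-) 2 (0.0618), Smo (-) PH 1 (0.232) or Smo (-) PH 2 (0.0504). Here the hepatocyte markers summed to 75168 to 80017 CPM in Smo (-) PH, against 60464 to 73800 in Smo (-), and none of the 5 was called. The 7 macrophage markers were all called higher in Smo (-) PH, with a sum of 195 to 227 CPM, against 71.7 to 105 in Smo (-).

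Of the 23 tested receptors and factors that control these genes, 6 fell and 3 rose in young mice after PH, 4 fell and 3 rose in old mice, and 9 fell and 1 rose in Smo (-) mice. Of all tested genes 16.4% fell and 17.8% rose in young mice, 15.1% and 22.5% in old, and 14.2% and 16.0% in Smo (-) mice. Cebpa, a liver transcription factor, fell in each, by log2 fold changes of -1.02 ± 0.21 (adjusted p = 0.00199), -1.20 ± 0.21 (adjusted p = 0.00072) and -2.07 ± 0.25 (adjusted p = 0.000371). Ahr, the receptor behind Cyp1a1 induction, rose in young (0.93 ± 0.17, adjusted p = 0.000969) and old mice (0.86 ± 0.18, adjusted p = 0.00212). Nr1i3, which encodes CAR, fell in Smo (-) mice (-1.82 ± 0.18, adjusted p = 0.00011). Of 19 redox partners and heme genes 4 rose and 6 fell in young, 4 and 2 in old, and 3 and 4 in Smo (-) mice. Cyb5r3, a cytochrome b5 reductase, fell in each, by log2 fold changes of -0.75 ± 0.17 (adjusted p = 0.00327), -0.75 ± 0.17 (adjusted p = 0.00343) and -1.02 ± 0.18 (adjusted p = 0.00257), and Cyb5r1 rose in each, at 0.92 ± 0.16 (adjusted p = 0.000637), 0.96 ± 0.17 (adjusted p = 0.000749) and 1.30 ± 0.27 (adjusted p = 0.00656).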

How the data were processed

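RNA was measured in poly(A)-selected libraries of freshly isolated hepatocytes from 18 mice. The authors deposited whole-number counts per gene for 12 young and old libraries and, in another table, 6 Smo libraries. By the submitters' notes and the study's methods, reads were trimmed with Trim Galore and aligned to mm10 with STAR 2.5.0c. By the study's methods duplicates were then removed with Picard, and genes were counted with HTSeq. The annotation release and the strand setting are not given in the sources used here. Genes were read by Ensembl ID, since 1.53% of names in the Smo table equal those of the GENCODE annotation for their ID, against 96.9% in the other. Pairs in no gene were left out of library sizes (2.03% to 33.9%). Depth per library was 16835686 to 36646939 read pairs, which limits the members at a few counts. Each table was fitted with edgeR 4.0.16 (R 4.3.3): TMM scaling, filterByExpr (minimum count 10, total 15), quasi-likelihood test, all groups of the table in 1 fit, Benjamini-Hochberg adjustment over 14554 and 13654 tested genes, threshold 0.05. Shares were compared by an exact permutation test. Values across the tables were not tested, since each was scaled separately. The steps were tested on simulated data. Alternatives were DESeq2 1.42.0, limma-voom (limma 3.58.1), RLE size factors, other filters, only the groups compared, a replicate block, a gene-length correction, each library left out and, chosen after seeing the data, a fit without mitochondrial and long noncoding genes. Same-numbered samples did not pair. Named members were the 20 with the highest mean among young and old mice, up to 4 with the largest called change each way per comparison at a mean of at least 1 CPM, and those of the role lists that passed the filter; others named were chosen after their values were seen. Of list genes, a few with small p were named. Some list results are not reported here. The members and lists were chosen with earlier results of these data known.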

Additional observations from a re-analysis of the deposited data

Results flagged for a closer look

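Cyp2c55 was called for an age difference in the response to PH, 2.17 on the log2 scale, old minus young (edgeR, adjusted p = 0.0334). In this test 3.26% of all genes were called, against 1 of 43 members, and the call ended without any of several single libraries. All 3 Old PH libraries lay above all other libraries. Exons of Cyp2c55 overlap a gene on the other strand, whose reads cannot be told apart from its own. In the Smo table the effect of Smo loss at 48 h minus that at 0 h was 8.75 for Cyp2a4, 2.19 for Cyp2a5 and -1.71 for Cyp2c54 on the log2 scale. Each rests on 1 Smo (+) mouse per time, and the Smo (+) library at 0 h is the one with 22.5% mitochondrial counts, whose part was not tested. No alternative fit could leave these Smo (+) libraries out.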

How the results depend on the processing

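The falls after PH held best: 18 of the 23 in young mice, 10 of the 17 in old mice and 11 of the 17 in Smo (-) mice were called in every alternative tried, and so were 5 of the 16 calls in Old against Young and 8 of the 24 in Old PH against Young PH. Leaving out 1 library gave 0 to 2 members for the age difference of the PH response, 3 to 9 for Smo (-) against Smo (+), 2 to 4 after PH and 2 to 8 for the difference of the Smo effect. The calls in Smo (-) against Smo (+) came to 8 with no filter on low counts, against 3; after PH they came to 2 with DESeq2, 1 with limma-voom, 4 with no filter and 1 with only the groups compared, against 0; and the difference of the Smo effect came to 6 with no filter, against 3. Summed over subfamilies, Old PH against Young PH gave 4 calls with the gene-length correction and 4 to 7 without 1 library, against 8; the age difference of the PH response gave 1 with DESeq2, Smo (-) PH against Smo (+) PH 1 with DESeq2, and the difference of the Smo effect 1 with DESeq2 and 1 with limma-voom, each against 0. Without 1 library, subfamily calls were 0 to 1 for Smo (-) against Smo (+), 2 to 8 for Smo (-) PH against Smo (-) and 0 to 3 for the difference of the Smo effect. The difference in share between Old and Young was -0.154 to 0.173 percentage points without 1 library, below 0 without Old 1 or Young 1, and -0.150 with mitochondrial and long noncoding genes left out, which also turned Smo (-) against Smo (+) to -0.0592; Smo (-) PH against Smo (+) PH was -0.137 without Smo (-) PH 1 and 0.142 without Smo (-) PH 2. With the gene-length correction Cyp2r1 turned to -0.0042 in Old against Young and Cyp2j5 to -0.0059 in Old PH against Young PH. The cause was not tested. A replicate block gave 6 members in Smo (-) against Smo (+) and 4 after PH; same-numbered samples correlated at -0.112 to 0.226 over 18 pairs of young and old libraries, with 2 over 0.1, and at -0.0394 in the Smo table, so that the numbers were not taken to pair the mice.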

Other observations

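Wild-type young mice and Smo-floxed mice of the same stated age and background stood apart in several members, by CPM scaled separately in each table and with no test. Cyp2c37 had 53.3 and 86.6 CPM in Smo (-) and 47.0 in Smo (+), against 230.0 to 284 in Young. Cyp2c39 had 25.1 and 31.5 CPM in Smo (-) and 32.8 in Smo (+), against 0.665 to 1.53 in Young. Cyp2c55 had 0.792 and 1.53 CPM in Smo (-) and 0.316 in Smo (+), against 18.8 to 25.3 in Young. Cyp2b9 and Cyp2c69 had no count in any of the 6 Smo libraries, against 3 to 136 and 63 to 66 counts in Young. The libraries also differed in composition. Pairs outside any gene made up 4.20% to 9.20% in Smo libraries, against 25.2% to 33.9% in young ones, and long noncoding genes took 0.426% to 0.974% of gene counts in Smo libraries, against 7.34% to 9.72% in young ones. The Smo allele, the virus and library preparation cannot be told apart here.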
